A study of Homo sapiens with 20 samples.

Results

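The genes CCKBR, TMEM150C, COLEC12, FAM184A and ARHGAP24, were followed through endoderm differentiation of unedited and edited human embryonic stem cells. These 5 members were chosen, out of 16792 features tested, because at day 4 they stood high in the unedited cells and lower in both edited clones. The values of the day 4 comparison with the unedited cells, and the increase in the unedited cells that gave the group its name, therefore describe the choice and are given with no test. Poly(A) RNA came from the human embryonic stem cell line H1, unedited (wild type, WT) or edited in 2 lines, KO1 and KO2, whose labels call them DIGIT knockouts. DIGIT is a long noncoding RNA transcribed beside GSC, a homeobox gene. All lines were sampled at day 0, in mTeSR1 medium without feeder cells, and at day 4 of culture towards endoderm in RPMI with B27 supplement and 50 ng/ml Activin A. Each of the 6 groups held 2 libraries, 12 in all. How the lines were edited is not given in the sources used here, each knockout line stands for 1 clone, and nothing in the labels says that the 2 libraries of a group were separate cultures, so p-values measure only the spread between these libraries.

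Definitive endoderm is the germ layer from which gut, liver and pancreas arise, and it can be made in culture by exposing pluripotent cells to Activin A, which acts through the receptors and SMAD proteins that Nodal uses in the embryo. The transcription factors EOMES, GSC, SOX17, FOXA2 and the GATA factors act in this step. The 5 genes stand outside that regulatory core. CCKBR codes for a G protein-coupled receptor for gastrin and cholecystokinin that acts through Gq and phospholipase C. TMEM150C codes for a membrane protein, also called tentonin 3, that has been linked to mechanically activated currents. COLEC12 codes for a scavenger receptor with a collagen-like stalk and a C-type lectin domain. ARHGAP24 codes for FilGAP, a GTPase-activating protein for Rac that binds filamin A. FAM184A codes for a coiled-coil protein whose function is little characterised.

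The genes lie on chromosomes 11 (CCKBR), 4 (TMEM150C and ARHGAP24), 18 (COLEC12) and 6 (FAM184A). RefSeq lists 1 transcription start for CCKBR and COLEC12 and 2 for each of the others. The windows from 250 bases before to 50 bases after each start were read, as the genes had been chosen for a shared direction at day 4. The CCKBR window (GRCh38.p14, chr11:6259588-6259887, plus strand) has a GC content of 72% and the COLEC12 window (chr18:500652-500951, minus strand) 79.7%, with 49 CpG dinucleotides, against a median of 58.7% over 35116 promoter windows. The upstream windows of TMEM150C (chr4:82562204-82562503, minus strand) and ARHGAP24 (chr4:85474900-85475199, plus strand) have 48.7% and 55.3%, and that of FAM184A (chr6:119149079-119149378, minus strand) 38%. The windows at the second starts of TMEM150C and FAM184A are as GC-rich as those of CCKBR and COLEC12, at 72.7% and 78.3%, with 28 and 47 CpG dinucleotides, and that of ARHGAP24 has 53.7%. The 4 windows printed are both single-start promoters and the only windows in which a searched motif occurred. Capitals mark the matches, read 5′ to 3′ on the gene's strand.
CCKBR: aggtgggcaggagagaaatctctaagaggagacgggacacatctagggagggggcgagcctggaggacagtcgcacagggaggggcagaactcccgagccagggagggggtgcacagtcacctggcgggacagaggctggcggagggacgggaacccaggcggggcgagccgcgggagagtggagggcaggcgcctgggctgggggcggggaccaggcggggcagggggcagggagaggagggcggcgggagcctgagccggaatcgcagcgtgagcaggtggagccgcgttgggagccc
COLEC12: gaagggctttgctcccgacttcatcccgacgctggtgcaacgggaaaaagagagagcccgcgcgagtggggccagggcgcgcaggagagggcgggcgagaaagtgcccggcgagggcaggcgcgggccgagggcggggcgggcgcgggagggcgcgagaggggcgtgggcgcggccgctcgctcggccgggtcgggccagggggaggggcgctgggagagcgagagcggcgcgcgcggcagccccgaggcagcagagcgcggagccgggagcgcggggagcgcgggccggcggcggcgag
TMEM150C: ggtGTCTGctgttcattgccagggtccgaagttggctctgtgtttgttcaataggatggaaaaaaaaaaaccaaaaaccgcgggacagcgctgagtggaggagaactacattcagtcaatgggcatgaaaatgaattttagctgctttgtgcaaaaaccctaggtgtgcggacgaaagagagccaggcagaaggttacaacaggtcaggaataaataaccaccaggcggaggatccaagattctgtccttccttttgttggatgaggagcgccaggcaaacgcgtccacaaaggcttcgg
ARHGAP24: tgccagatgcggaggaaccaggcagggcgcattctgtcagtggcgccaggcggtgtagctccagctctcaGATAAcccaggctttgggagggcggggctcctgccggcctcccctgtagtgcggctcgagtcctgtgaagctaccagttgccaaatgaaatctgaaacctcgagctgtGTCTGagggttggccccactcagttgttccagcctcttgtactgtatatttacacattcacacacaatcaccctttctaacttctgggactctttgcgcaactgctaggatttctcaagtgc

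Motifs of 7 endoderm factors were searched on both strands, with no overlap between matches. The SMAD core CAGAC occurred at −247 in the TMEM150C window and at −72 in the ARHGAP24 window, in both on the opposite strand (counted from the start as 1), and 45.3% of all promoter windows hold it. The GATA core GATAA occurred at −180 in the ARHGAP24 window and is in 22.7% of all windows. TGTTTAC for FOXA (3.42% of all windows), GGTGTGA for T-box factors (3.45%), ACAATGG for SOX factors (3.16%), TAATCC for GSC and OTX2 (6.36%) and ATCCACA for FOXH1 (2.73%) were not found in the 8 windows of the 5 genes. No searched motif thus occurred in all 5 genes' windows, which says nothing of sites elsewhere.

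Libraries held 9942016 to 21394547 counts. KO1 day 0 replicate 2 stood apart from its partner, with a chi-square of 22 per gene between the pair against 1.96 to 4.11 in the other pairs, so day 0 results are also given without either KO1 library where this changes them. The identity of the cells was read from 22 definitive endoderm genes, whose summed level was 209 to 210 CPM (the usual count scaled to library depth, here after TMM scaling) in WT at day 0. At day 4 it was 6510 to 7010 CPM in WT, 6490 to 6500 CPM in KO1 and 1540 to 1830 CPM in KO2, a sum to which CER1 gave the most. Against WT at day 4, 12 of the 22 genes were lower and 2 higher in KO1, and all 22 were lower in KO2, with medians of log2 −0.46 and −2.36 beside a median of 0.01 over all features in either clone.

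Other lineage markers also differed between the day 4 groups. The summed level of 10 pluripotency genes was 5290 to 5450 CPM in WT, 5080 to 5240 in KO1 and 6600 to 6660 in KO2, and that of 15 mesoderm genes 50.8 to 55.1, 98.5 to 102 and 33.7 to 35.1 CPM. Of the tested pluripotency genes 1 was higher and 1 lower in KO1 and 7 were higher and 1 lower in KO2 (of 10), and of the tested mesoderm genes 4 were higher in KO1 and 4 lower in KO2 (of 10). The sums of 12 neuroectoderm genes were 1080, 1340 to 1380 and 1260 to 1280 CPM, with 2 of 11 tested genes higher in KO1, and 3 higher and 2 lower in KO2. NES gave the most to these sums, with means of 766, 1030 and 987 CPM, so they mainly follow this gene. The 8 extraembryonic endoderm genes summed to 222 to 224, 254 to 256 and 201 to 212 CPM, with 2 of 7 tested genes higher and 2 lower in KO1 and 5 lower in KO2, and TTR at 0 counts in all day 4 groups. The 8 trophoblast genes summed to 5.95 to 6.19, 7.42 to 7.57 and 5.14 to 5.89 CPM, where 1 of 4 tested genes, HAND1, was higher in KO1. The lists share genes, as HAND1 is also in the mesoderm list and PDGFRA in the mesoderm and extraembryonic endoderm lists. Both were called higher in KO1 and are counted in each list. The 9 endothelium and blood genes summed to 215 to 219, 172 to 176 and, in the lower KO2 library, 130 CPM, where 1 of 7 tested genes, VWF, was lower in each clone and PECAM1 was at 0 counts in WT and KO1. The part of these differences in the results below was not tested, and in bulk RNA fewer cells of a type and less RNA per cell cannot be told apart.

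At day 0 the 5 genes were detected in all lines, from 0.291 CPM (ARHGAP24) to 26.4 CPM (FAM184A), and none was called different between lines. CCKBR stood at 11.4 and 7.06 CPM in the WT libraries, 11.3 and 6.81 CPM in KO1 and 11.1 and 11.9 CPM in KO2. These ranges overlap. FAM184A was 16.3 and 20 CPM in WT, 18.8 and 26.4 CPM in KO1 and 17.8 and 21.9 CPM in KO2, again with overlap. TMEM150C was 1.84 and 1.91 CPM in WT, 3.08 and 2.27 CPM in KO1 and 3.09 and 2.25 CPM in KO2. Both clones thus lay above WT for TMEM150C without overlap, by log2 0.49 (SE 0.29) and 0.51 (SE 0.33). The 95% intervals, −0.13 to 1.12 in KO1 and −0.18 to 1.21 in KO2, span no difference, and neither difference passed. The share of all features without overlap between lines at day 0 was not counted. COLEC12 was 6.2 and 5.65 CPM in WT, 3.24 and 4.05 CPM in KO1 and 4.4 and 5.58 CPM in KO2. It was the member with the lowest unadjusted p against WT, at log2 −0.68 in KO1 (SE 0.18, 95% interval −1.07 to −0.29), which did not pass over all features (edgeR, adjusted p = 0.23). For ARHGAP24 the counts were 3 and 5 (WT), 8 and 11 (KO1) and 7 and 3 (KO2), or 0.291 to 0.656 CPM, close to the floor of 3 counts.

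The count of members called at day 0 was 0 of 5 for KO1 against WT, for KO2 against WT and for KO2 against KO1 with edgeR and with DESeq2. Over all features 0.238%, 0.143% and 0.0119% were called in these comparisons. At an unadjusted p under 0.05 there were 1, 0 and 1 members, COLEC12 in both cases. Without KO1 day 0 replicate 1, FAM184A was called higher in KO1 than in WT (log2 0.53, adjusted p = 0.00446) and CCKBR and FAM184A were called between the clones (log2 0.75 and −0.41, adjusted p = 0.0131 and 0.0303). In that setting 3761 and 2777 features were called, against 40 and 2 with all libraries. Without KO1 day 0 replicate 2, none of the 5 was called in these comparisons.

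At day 4 WT held the highest level of every member, KO1 came next and KO2 was lowest. CCKBR was 157 and 132 CPM in the WT libraries, 19 and 20.1 CPM in KO1 and 8.67 and 7.36 CPM in KO2. KO1 thus kept 13.5% and KO2 5.55% of the WT mean, with no overlap between the 3 lines. TMEM150C was 30.6 and 27.6 CPM in WT, 5.52 and 4.4 CPM in KO1 and 3.13 and 1.74 CPM in KO2, so that KO1 kept 17.1% and KO2 8.37%. FAM184A was 104 and 92.9 CPM in WT, 19.1 and 18.3 CPM in KO1 and 10.4 and 10.8 CPM in KO2, which is 19% and 10.8% of WT. For these 3 genes both clones stood far below WT.

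COLEC12 and ARHGAP24 were spaced differently. COLEC12 was 169 and 149 CPM in WT, 59 and 57.4 CPM in KO1 and 9.07 and 7.09 CPM in KO2, so that KO1 kept 36.7% of the WT mean and KO2 5.09%. ARHGAP24 was 13.7 and 11.3 CPM in WT, 6.04 and 5.71 CPM in KO1 and 0.802 and 0.468 CPM in KO2, or 47.1% and 5.1%. As in the other 3 genes, KO1 lay between WT and KO2 without overlap, and the share of all features with this order was not counted. The difference in spacing between COLEC12 and ARHGAP24 and the other 3 genes was not tested.

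**Figure D1:**
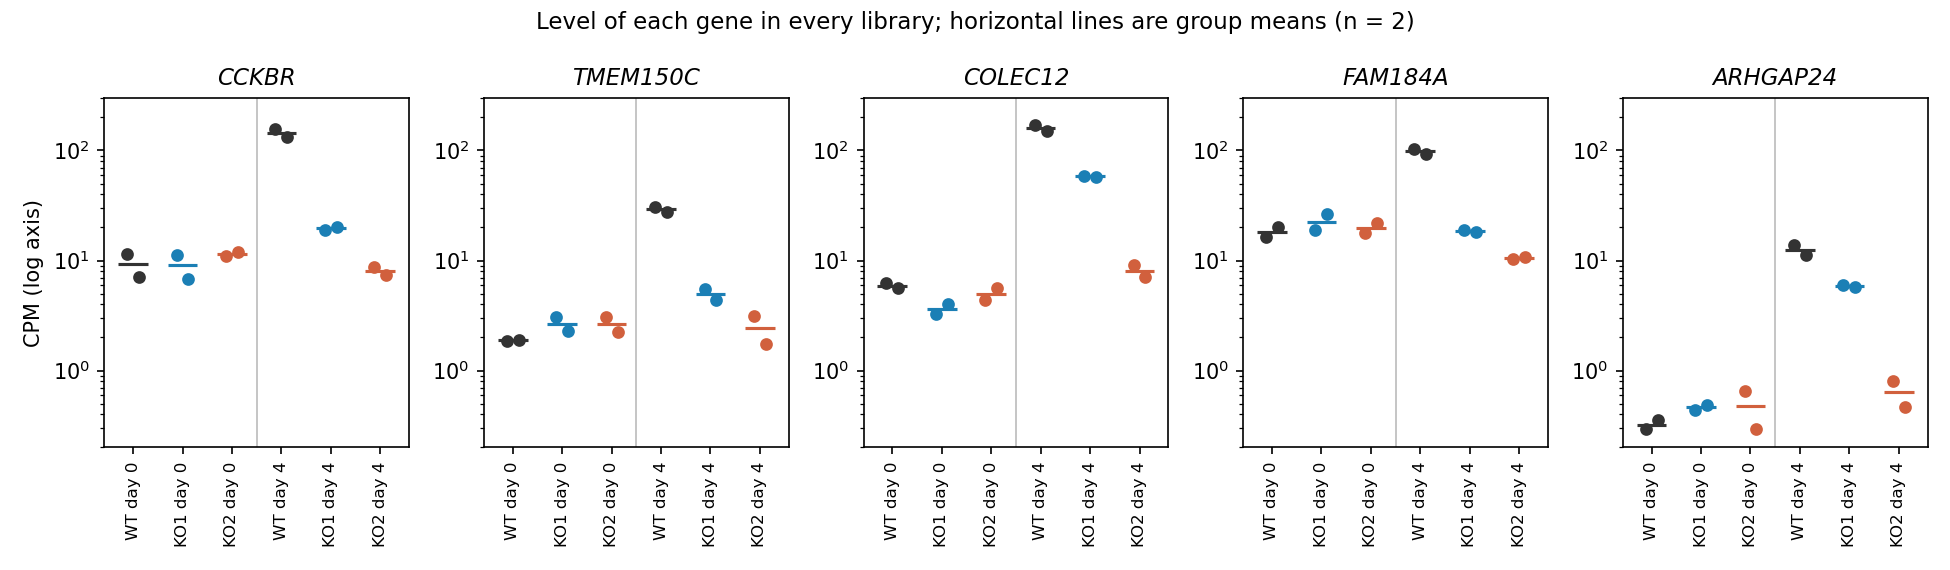
Level of each gene in CPM (log axis) in every library, by line and day, with horizontal lines at the group means (n = 2). At day 4 WT is highest, KO1 next and KO2 lowest for all 5 genes. KO1 is at 57.4 to 59 CPM for COLEC12 and 5.71 to 6.04 CPM for ARHGAP24. KO2 lies near the day 0 levels or, for FAM184A, below them.

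On the log2 scale the members stood lower than WT at day 4 by −2.88 (CCKBR), −2.56 (TMEM150C), −1.45 (COLEC12), −2.39 (FAM184A) and −1.08 (ARHGAP24) in KO1. In KO2 the values were −4.17, −3.6, −4.3, −3.2 and −4.3 in the same order. In WT the day 4 level exceeded the day 0 level by log2 3.99, 3.95, 4.75, 2.43 and 5.21. Of all features, 9.42% were called lower in KO1 and 14.5% in KO2, 18.2% had all 4 clone libraries below both WT libraries, and 24.3% were called higher at day 4 in WT. As the members were chosen on these contrasts, nothing is read from their counts here.

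In all 476 features (2.83%) were called higher at day 4 in WT and lower in each clone, and all 5 members are among them. Over these 476 the level kept had a median of 62.3% of WT in KO1 and 52.6% in KO2. From the lowest level kept in KO1, CCKBR ranked 9, TMEM150C 13, FAM184A 15, COLEC12 57 and ARHGAP24 107. In KO2 their ranks were 13, 27, 37, 10 and 12. Only 11 of the 476 kept under 20% of WT in both clones, a limit chosen after the values were seen. CCKBR, TMEM150C and FAM184A are among those 11. The members were chosen on these same day 4 levels. These ranks and this count thus describe the choice, and nothing is read from them.

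**Figure D2:**
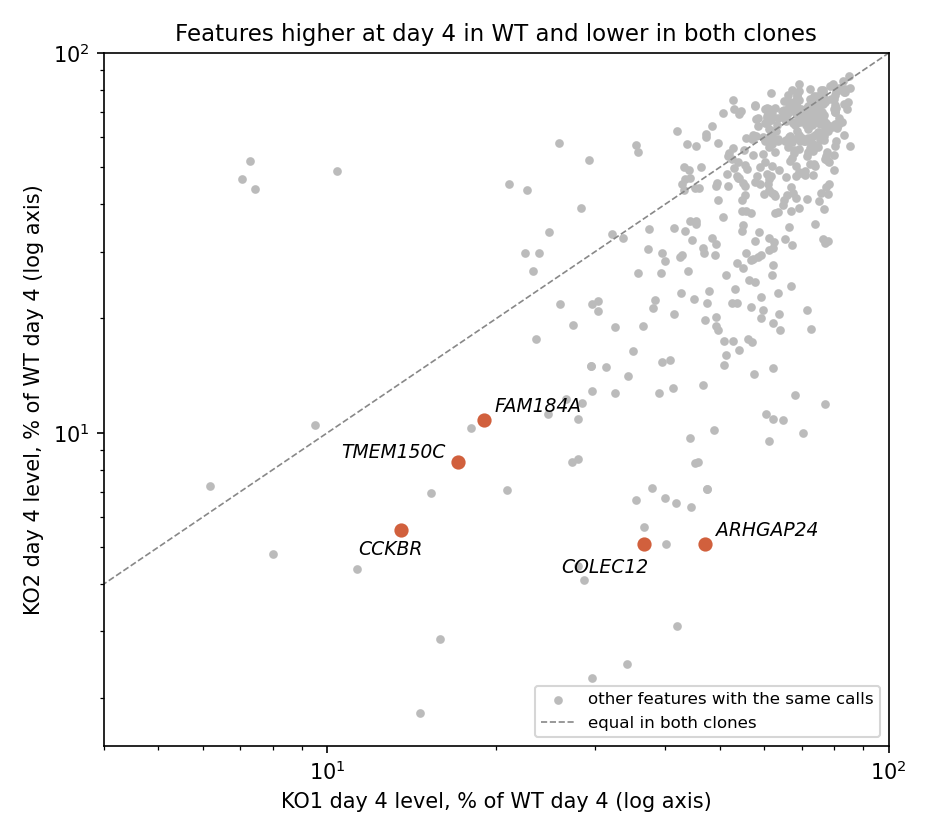
Level kept at day 4 in KO1 (x axis) and KO2 (y axis) as a percentage of WT, both on log axes, for the 476 features called higher at day 4 in WT and lower in each clone. Most features lie at the upper right, CCKBR, TMEM150C and FAM184A at the lower left (13.5% to 19% in KO1), and COLEC12 and ARHGAP24 at 36.7% and 47.1% in KO1 with about 5.1% in KO2. The 5 genes were chosen on these levels.

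The clones were compared with each other at day 4, a difference whose direction the choice of genes does not fix. The day 4 libraries of both clones did enter the choice, as lower than WT, so this comparison is not independent of it. All 5 members were lower in KO2 than in KO1, and for all 5 both KO2 libraries lay below both KO1 libraries, as they did for 34.7% of all features. The largest differences were those of ARHGAP24, at log2 −3.22 (SE 0.30, 95% interval −3.85 to −2.58, edgeR adjusted p = 1.69e-06), and COLEC12, at log2 −2.86 (SE 0.14, adjusted p = 3.99e-09). CCKBR differed by log2 −1.29 (SE 0.22, adjusted p = 0.000498), TMEM150C by −1.04 (SE 0.26, adjusted p = 0.00893) and FAM184A by −0.81 (SE 0.17, adjusted p = 0.00279). KO2 thus held 10.8% of the KO1 level of ARHGAP24 and 56.9% of that of FAM184A, the outer values of the 5. Without KO1 day 4 replicate 1 or KO2 day 4 replicate 2 the TMEM150C call was lost (adjusted p = 0.0884 and 0.154, over alternatives from 0.000271 to 0.154).

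These 5 calls stand against 14.3% of all features called lower in KO2 than in KO1 (25.1% called in either direction), and 37.4% (178) of the 476 features with the same calls. Of the 22 definitive endoderm genes 18 were lower in KO2 than in KO1, with a median of log2 −1.79. The total of 4214 features called in either direction was 2168 and 2789 without KO1 day 4 replicate 1 and 2, and 2677 and 2296 without KO2 day 4 replicate 1 and 2.

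Within each clone the members were then compared between day 4 and day 0, with the limit that the clones' day 4 libraries also entered the choice, as lower than WT. In KO1, 4 of the 5 rose and none fell, where 29.1% of all features rose and 29.3% fell, and of the 476 features 43.7% rose and 12.6% fell. COLEC12 rose by log2 3.98 (SE 0.14, adjusted p = 8.85e-12) and ARHGAP24 by 3.63 (SE 0.29, adjusted p = 4.5e-08), which is 16 and 12.7 times their day 0 means. CCKBR rose by log2 1.13 (SE 0.21, adjusted p = 0.000241) and TMEM150C by 0.89 (SE 0.24, adjusted p = 0.00517). The TMEM150C call was lost without KO1 day 4 replicate 1 (adjusted p = 0.0576, over alternatives from 0.000249 to 0.0576). FAM184A did not pass (log2 −0.28, SE 0.15, adjusted p = 0.129), its KO1 day 4 libraries lying within the range of day 0 values of all lines. Without KO1 day 0 replicate 1 it was called lower at day 4 (log2 −0.5, adjusted p = 0.00138).

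In KO2, COLEC12 was the only member that rose, by log2 0.69 (SE 0.18, adjusted p = 0.00595), where 25% of all features and 28.4% of the 476 rose. Its call was lost without KO2 day 0 replicate 1 or KO2 day 4 replicate 1 (adjusted p = 0.0826 and 0.0668, over alternatives from 0.00102 to 0.0826). FAM184A fell by 0.90 on the log2 scale (SE 0.17, 95% interval −1.27 to −0.53, adjusted p = 0.000589), where 25.7% of all features and 17.6% of the 476 were called lower in KO2. Its 2 KO2 day 4 libraries lay below all 6 day 0 libraries. The share of all features without overlap between the days was not counted. CCKBR was also below its KO2 day 0 libraries without overlap (log2 −0.53, SE 0.24), but did not pass (adjusted p = 0.0818). It was called in 6 of 18 alternatives, with adjusted p from 0.00285 to 0.309, DESeq2 among them (adjusted p = 0.0447). TMEM150C (log2 −0.17, SE 0.31) and ARHGAP24 (log2 0.37, SE 0.51) overlapped their day 0 values, with adjusted p = 0.676 and 0.598. For ARHGAP24 KO2 had 17 counts over both day 4 libraries, against 153 in KO1 and 354 in WT.

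The change from day 0 to day 4 was lower in KO2 than in KO1 for 3 of the 5 members, tested as the interaction of clone and day, where 6.52% of all features were called in that direction and 10.4% in either. Of the 476 features with the same calls at day 4, 19.7% were lower in this test. The clones' day 4 libraries, which entered the choice of genes, are part of this test too. COLEC12 differed by log2 −3.3 (SE 0.25, adjusted p = 2.54e-06), ARHGAP24 by −3.25 (SE 0.66, adjusted p = 0.00468) and CCKBR by −1.66 (SE 0.32, adjusted p = 0.00321). TMEM150C (log2 −1.06, SE 0.39, adjusted p = 0.106) and FAM184A (−0.62, SE 0.23, adjusted p = 0.116) had the same sign and did not pass. The ARHGAP24 call was lost without KO2 day 0 replicate 1, whose day 0 value rests on 7 counts (log2 −2.57, adjusted p = 0.177, over alternatives from 0.000285 to 0.177). Leaving out KO1 day 0 replicate 1 or KO2 day 4 replicate 1 gave a call of TMEM150C (adjusted p = 0.0222 and 0.0376), and leaving out KO1 day 0 replicate 2 a call of FAM184A (adjusted p = 0.00187). The 1754 features called in either direction were 3737 and 3261 without KO1 day 0 replicate 1 and 2, and 1007, 994, 897, 1154 and 969 without KO2 day 0 replicate 1 and 2, KO1 day 4 replicate 1 and KO2 day 4 replicate 1 and 2.

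**Figure D3:**
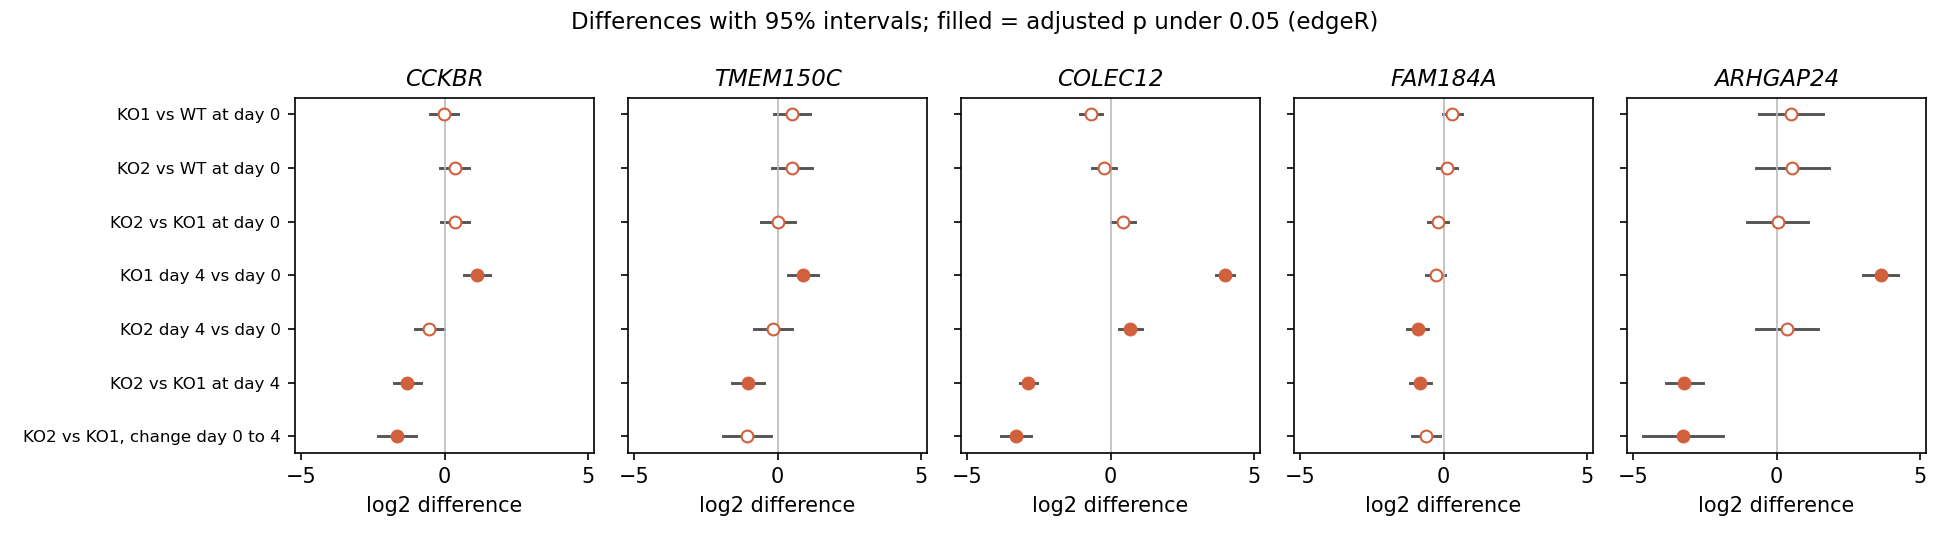
Log2 differences of each gene (x axis) with 95% intervals in the 7 comparisons tested, filled where edgeR's adjusted p was under 0.05. Day 0 differences are open, from −0.68 (COLEC12, KO1 against WT) to 0.54 (ARHGAP24, KO2 against WT), with 95% intervals that leave out 0 for COLEC12 in KO1 against WT and in KO2 against KO1, and all 5 genes are filled and below 0 for KO2 against KO1 at day 4, from −0.81 (FAM184A) to −3.22 (ARHGAP24).

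Ordered over all 6 groups, COLEC12 was the only member whose groups did not overlap anywhere, in the order WT, KO1 and KO2 at day 4, then WT, KO2 and KO1 at day 0. CCKBR separated WT day 4 and KO1 day 4 from a set formed by KO2 day 4 and the 3 day 0 groups, whose neighbours in that order, KO2 day 0, WT day 0, KO1 day 0 and KO2 day 4, overlapped. TMEM150C and ARHGAP24 showed the same separation, with KO2 day 4 among the day 0 groups. FAM184A separated WT day 4 at the top and KO2 day 4 at the bottom from KO1 day 4 and the day 0 groups, which overlapped. In these orders the place of WT day 4 above the clones describes the choice of genes. None of the differences between lines at day 0 passed, those of COLEC12 included. The share of all features with such separations over the 6 groups was not counted.

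The pattern of each member over the 12 libraries was compared with 12456 other features by Pearson correlation of log2 CPM. These features had a gene symbol, with transcript models and LOC entries left out, and at least 5 CPM in their highest group. The other members were ranked but left out of the 3 most alike. The correlations describe libraries that share line, day and depth. CCKBR and TMEM150C were most like the same genes, CYHR1, EYA2 and COL4A1 (r from 0.965 to 0.98). Each of the 2 members ranked 2 in the order of the other (r = 0.977). All 5 members were chosen for their day 4 levels, so likeness between members follows in part from the choice. The value of r takes no account of the size of a change. CYHR1 was 23.9 ± 1.48 CPM in WT at day 0 and 34.5 ± 1.83 CPM at day 4 (SD, n = 2). CCKBR was 9.25 ± 3.09 and 144 ± 17.3 CPM. EYA2, a transcriptional coactivator with phosphatase activity, was 2.66 ± 0.336 CPM in WT at day 0 and 21.8 ± 0.422, 6.11 ± 0.215 and 2.37 ± 0.614 CPM in WT, KO1 and KO2 at day 4 (SD, n = 2). COL4A1, a basement membrane collagen, was 440 ± 14.6 CPM in WT at day 4 and 241 ± 11.8 and 200 ± 3.26 CPM in the clones. COLEC12 was most like PHACTR2, PCDH7 and ANKRD6 (r = 0.99, 0.989 and 0.989). ARHGAP24 was most like RHOBTB3, SPRED2 and S1PR3 (r = 0.994, 0.989 and 0.986). S1PR3, a receptor for sphingosine-1-phosphate, was 144 ± 0.0318, 93.4 ± 1.71 and 15.6 ± 1.64 CPM at day 4 in the order WT, KO1, KO2. COLEC12 ranked 26 in the order of ARHGAP24 (r = 0.976). FAM184A was most like GATS, C2orf74 and ARSA (r = 0.988, 0.97 and 0.969). Among the members its r was 0.901 to CCKBR, 0.888 to TMEM150C, 0.7 to COLEC12 and 0.696 to ARHGAP24. ARSA, the lysosomal enzyme arylsulfatase A, was 17.8 ± 1.52 CPM in WT at day 4 and 8.01 ± 0.63 and 7.84 ± 0.0801 CPM in the clones.

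The genes beside the members were read next, taking the nearest tested gene on each side. None of the 10 neighbours was used to choose the members, so they were tested against WT at day 4. In KO1, 3 of 10 were lower and none higher, against 9.42% and 10.5% of all features, and in KO2, 5 were lower and 1 higher, against 14.5% and 13.5%. CNGA4, a subunit gene of a cyclic nucleotide-gated channel that lies beside CCKBR, was 11.2 ± 0.498, 2.78 ± 0.151 and 1.26 ± 0.264 CPM at day 4 in the order WT, KO1, KO2, and 1.15 ± 0.0226 CPM in WT at day 0. It was lower by log2 −2.01 (SE 0.19, adjusted p = 5.04e-06) in KO1 and −3.17 (SE 0.22, adjusted p = 7.87e-08) in KO2. PRKCDBP, the caveolar gene now named CAVIN3 on the other side of CCKBR, was lower by log2 −0.77 (SE 0.14, adjusted p = 0.00113) and −1.78 (SE 0.15, adjusted p = 5.5e-07). Both neighbours of CCKBR were thus lower in both clones.

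SCD5, a fatty acid desaturase gene beside TMEM150C, was 3.92 ± 0.713, 1.43 ± 0.174 and 0.749 ± 0.302 CPM in that order (log2 −1.45 and −2.4, adjusted p = 0.00423 and 0.000126), while ENOPH1 on the other side was higher in KO2 by log2 0.5. MAPK10, the JNK3 kinase gene beside ARHGAP24, and MAN1A1, a Golgi mannosidase gene beside FAM184A, were lower in KO2 by log2 −1.99 and −1.54 (adjusted p = 6.1e-07 and 1.84e-06). In KO1 they did not pass, at log2 −0.15 and 0.11 (adjusted p = 0.518 and 0.624), and both were lower in KO2 than in KO1 (log2 −1.83 and −1.65, adjusted p = 1.67e-06 and 9.41e-07). Neither neighbour of COLEC12, THOC1 and C18orf56, passed in either clone. RefSeq lists 9 further entries that overlap a member, none of them tested here, and whether reads of a neighbour or an overlapping transcript enter a member's count was not tested.

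**Figure D4:**
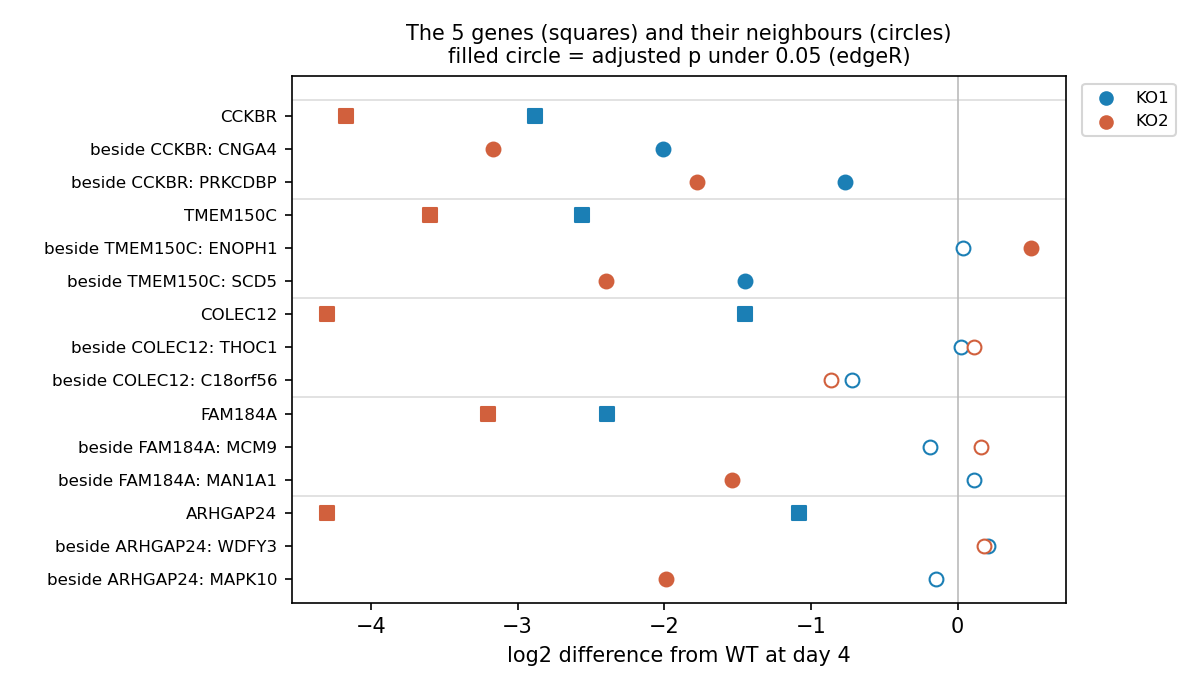
Log2 difference from WT at day 4 (x axis) of the 5 genes (squares, chosen on this difference) and of the nearest tested gene on each side (circles, filled where edgeR's adjusted p was under 0.05), for KO1 and KO2. Both neighbours of CCKBR lie left of 0 in both clones, whereas MAN1A1 and MAPK10 do so in KO2, at −1.54 and −1.99, and lie near 0 in KO1.

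No tested relative of the members was lower in both clones. Of 10 close relatives, 5 passed the filter on low counts. TMEM150A was 26.5 ± 2.81, 24.9 ± 1.59 and 23.9 ± 2.29 CPM in WT, KO1 and KO2 at day 4, with log2 −0.09 and −0.15 (adjusted p = 0.659 and 0.414). SCARA3, a scavenger receptor related to COLEC12, was lower in KO1 by log2 −0.66 (adjusted p = 0.00396) and higher in KO2 by 0.42 (adjusted p = 0.0243). FAM184B, ARHGAP22 and ARHGAP25 did not pass in either clone. CCKAR, TMEM150B, COLEC10, COLEC11 and SCARA5 did not reach the filter.

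Around CCKBR, 15 of 17 genes of cholecystokinin and gastrin signalling through Gq were tested. Against WT at day 4, PRKCA was lower in KO1 (log2 −0.52, adjusted p = 0.00951) and PRKCB higher in KO2 (log2 0.6, adjusted p = 0.0282), both protein kinase C genes, and the other 14 did not pass in each clone. In WT 10 of the 15 fell and 3 rose between the days, with a median of log2 −0.58 beside 0 over all features. Of all features 24.3% were called higher in WT, and the share called lower in WT is not given here. Between the days 29.3% of all features were called lower in KO1 and 25.7% in KO2. Nothing is thus read from the count of genes that fell. The ligand gene CCK, named after its values were seen, had 22 counts in WT at day 0 and 2 at day 4, and 1 count in each clone at day 4. The gastrin gene GAST had 0 counts in all day 4 groups. The receptor gene was therefore at its highest in WT libraries in which both ligand genes were under 3 counts over the group.

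Of the collectin and scavenger receptor genes, 14 of 20 were tested, and 2 were higher and 1 lower in KO1, and 3 higher and 1 lower in KO2 (medians of log2 0.22 and −0.14). SCARB1, the receptor for high-density lipoprotein, was higher in both clones, by log2 0.33 and 0.30 (adjusted p = 0.0316 and 0.0339). Of the mechanically gated channel and TMEM150 genes, 14 of 17 were tested, with 1 higher and 3 lower in KO1 and 5 lower in KO2 (medians −0.18 and −0.05). TMEM63A, an osmosensitive channel gene, was 212 ± 2.72, 129 ± 6.8 and 197 ± 10.4 CPM in the order WT, KO1, KO2, lower in KO1 by log2 −0.72 (adjusted p = 0.000178), and in KO2 it did not pass (log2 −0.11, adjusted p = 0.46). TMEM63B and TMC6 were lower in both clones, TMEM63B by log2 −0.69 and −0.29 and TMC6 by −0.39 and −0.98. PIEZO1 was higher in KO1 by log2 0.33 and TRPV4 lower in KO2 by −0.81, and neither passed in the other clone (log2 0.09 and −0.45, adjusted p = 0.567 and 0.155).

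All 24 genes of the Rac and filamin list were tested, with 6 higher in KO1, and 5 higher and 5 lower in KO2 (medians of log2 0.14 and 0.06). FLNA, the binding partner of the ARHGAP24 protein, did not pass in either clone (log2 0.13 and −0.08, adjusted p = 0.341 and 0.527). VAV3 was higher in both clones, by log2 0.51 and 0.3, and FLNC was higher in KO1 by 0.91 and did not pass in KO2 (log2 −0.07, adjusted p = 0.653). In KO2 PAK1 and RAC3 were higher by log2 0.56 and 0.36, and WASF2 was lower by −0.39.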

How the data were processed

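For each of 12 RNA-seq libraries the authors deposited raw counts by feature. Bowtie2 2.1.0, HTSeq 0.6.1 and hg19 are named in this context, per the submitters' processing notes. The kit was stranded, per the labels' protocols. The counting's strand setting, annotation and quality limit were not given in the sources used here. Reads that named no feature (29.2% to 30.5% outside features, 19.3% to 22.2% of low mapping quality) were left out. The 8 ChIP-seq samples were not analysed here.

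Of 54435 features 16792 passed filterByExpr. Counts were scaled by TMM (factors 0.937 to 1.05), and edgeR's quasi-likelihood test was fitted to all 12 libraries in 6 groups (6 residual degrees of freedom) with Benjamini-Hochberg adjustment over all features and a threshold of 0.05. SE is the log2 difference divided by the square root of F. A prior count of 2 was used for log2 CPM. A floor of 3 counts was used, worth 0.133 to 0.294 CPM depending on the library. The fit was tested on simulated data.

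The members and gene lists were chosen with earlier results of these data known. The text names the 5 members, the 3 most similar features of each, their neighbours and closest relatives, and the 2 largest called genes each way, of at least 5 CPM, in each related list. Some genes that this rule names are not reported here. The neighbours come from RefSeq's GRCh38.p14 gene table, used for names and order alone. Alternatives were DESeq2 size factors or upper-quartile factors, the DESeq2 test, no filter, a fit of only the groups compared, the replicate number as a block, and leaving out each library. Software was R 4.3.3, edgeR 4.0.16, limma 3.58.1, DESeq2 1.42.0 and matplotlib 3.10.9.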

Additional observations from a re-analysis of the deposited data

Results flagged for a closer look

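Between day 0 and day 4 the change in 3 members differed between the clones by the test of the interaction of clone and day. It was lower in KO2 than in KO1 by log2 −3.3 for COLEC12 and −3.25 for ARHGAP24, and by −1.66 for CCKBR (edgeR adjusted p = 2.54e-06, 0.00468 and 0.00321). In CPM, COLEC12 gained 54.6 in KO1 and 3.09 in KO2, ARHGAP24 gained 5.41 and 0.161, and CCKBR gained 10.5 in KO1 and dropped by 3.48 in KO2, where that change did not pass. The gains in WT, given as values, were 153, 12.1 and 135 CPM. The day 4 libraries of both clones had entered the choice of genes, as lower than WT.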

How the results depend on the processing

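Over 18 alternative settings, 12 of them leaving out 1 library, the 5 members kept their sign in the day 4 comparison of the clones, in the interaction and against WT at day 4, and COLEC12, CCKBR and ARHGAP24 kept their call in KO1 between the days. Without a filter on low counts the features called were 383 for KO1 against WT at day 0, 113 for KO2 against WT at day 0 and 71 for KO2 against KO1 at day 0, with 1 member called for KO1 against WT (COLEC12, adjusted p = 0.0312) and 5 members in the interaction. In a fit of only the groups compared they were 13, 126 and 0 at day 0 and 6713 for KO2 against KO1 at day 4, and with the DESeq2 test 38 for KO2 against WT at day 0. The causes were not tested. With 1 library left out, the features called ranged from 9 to 3761 for KO1 against WT at day 0 (40 with all), 2 to 121 for KO2 against WT (24), 0 to 2777 for KO2 against KO1 at day 0 (2), 2168 to 6115 for the clones at day 4 and 897 to 3737 for the interaction. Members called ranged from 0 to 1 for KO1 against WT at day 0, 0 to 2 between clones at day 0, 1 to 3 for KO2 between days and 2 to 4 for the interaction.

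With 1 library left out, 8 differences that did not pass with all libraries changed sign. At day 0 against WT their ranges were log2 −0.4 to 0.34 for CCKBR in KO1, and in KO2 −0.04 to 0.29 for FAM184A and −0.15 to 0.99 for ARHGAP24. Between the clones at day 0 they were −0.24 to 0.24 for TMEM150C, −0.41 to 0.08 for FAM184A and −0.66 to 0.48 for ARHGAP24. In KO2 between the days they were −0.62 to 0.22 for TMEM150C and −0.07 to 1.06 for ARHGAP24. Where 1 library stands for a group, it is assumed to vary like the other groups.

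Libraries share replicate numbers, which were left out of the main fit. Deviations of same-numbered libraries correlated at −0.0403 to 0.155 (median 0.0383). The correlation was positive in 12 of 15 pairs of groups and over 0.1 in 1. These values are low and do not settle whether the libraries were weakly paired. With the replicate number as a block, CCKBR was called lower at day 4 in KO2 (log2 −0.52, adjusted p = 0.043) and no other call of a member changed. The features called at day 4 between clones were then 4602, against 4214. Depth limits ARHGAP24 at day 0 most, at 3 to 11 counts a library.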
